A study of Mus musculus with 24 samples.

Results

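Sites that gained reads in DKO KLS cells without lying in any peak were selected from the deposited table that compares DKO with Daxx-WT. KLS cells are the c-Kit+ Lin- Sca-1+ stem and progenitor cells of the bone marrow. The table lists 50928 sites, all on the standard chromosomes, and 36740 of them had a higher mean in DKO. Of these, 28367 (77.2% of the higher sites and 55.7% of the table) overlapped none of the 11 peak lists of the series by even 1 bp. The members were thus chosen on the measured DKO and Daxx-WT values, and their difference between these groups is given as a description, without a test. The study profiled chromatin accessibility by ATAC-seq, which tags accessible DNA with adapters carried by the Tn5 transposase, in 24 libraries of 11 groups of sorted mouse bone marrow cells. DKO libraries (2) came from mice with floxed Daxx (Daxx F/F) and floxed Pu.1 (Pu.1 F/F), and Daxx-WT libraries (2) from Daxx +/+ mice, all Cre +/- and C57BL/6 and collected 3 weeks post induction (w.p.i.). The Daxx-KO KLS libraries (3) set beside them came from Daxx F/F mice of the same arm and time. All these mice carry Cre, driven by the interferon-inducible Mx1 promoter in this arm of the study, so the controls received the same pI:pC induction. The libraries of long-term haematopoietic stem cells (LT-HSCs) used here, 3 of Daxx F/F and 2 of Daxx +/+ mice at 3 days post induction (d.p.i.), come from the other arm, in which a ubiquitous tamoxifen-dependent Cre (Rosa26CreERT2) was induced with tamoxifen, also in the controls. No library of Pu.1 F/F alone was analysed here, so the loss of Pu.1 and the joint loss of both genes cannot be told apart. The labels give neither the age nor the sex of the mice of each library.

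In ATAC-seq most of the genome is cut at a low rate, and peaks are the places where cutting stands out from it. Reads outside peaks come from closed chromatin, from weakly open chromatin, and from DNA that the enzyme, PCR or mapping favours. Tn5 cutting and PCR both depend on base composition, and introns and the surroundings of active genes are generally more accessible than gene-poor regions. Daxx deposits the histone variant H3.3, and Pu.1, encoded by Spi1, is an ETS-family transcription factor that opens myeloid and lymphoid enhancers at GAGGAAGT-like sequences.

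The sequences at the sites are shown first. The first pair are the members closest to the middle of the set in level, length, GC content, repeat content and distance to peaks and genes. Motifs are not among these measures. The Scara3 stretch holds acttcctc, the reverse complement of the Pu.1 motif GAGGAAGT, which was found at 1.08% of the members. This pair is followed by the members with the largest ratio, farthest from a peak and at an internal transcript start of Notch1. Each is the central 200 bases of a site, on the plus strand of mm10, 5′ to 3′, with CpG dinucleotides in capitals.
Typical member in an intron of Scara3, chr14:65949051-65949250: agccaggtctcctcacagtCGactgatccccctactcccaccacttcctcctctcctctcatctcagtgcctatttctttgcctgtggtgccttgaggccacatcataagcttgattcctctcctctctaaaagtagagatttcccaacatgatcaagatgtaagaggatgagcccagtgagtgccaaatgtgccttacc
Typical member in an intron of the lncRNA gene Gm13780, chr2:92051501-92051700: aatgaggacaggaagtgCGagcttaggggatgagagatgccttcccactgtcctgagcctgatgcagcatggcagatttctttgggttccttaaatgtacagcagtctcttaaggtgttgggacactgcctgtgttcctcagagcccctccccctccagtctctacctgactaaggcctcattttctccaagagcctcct
Largest ratio, intergenic, chr17:6496526-6496725: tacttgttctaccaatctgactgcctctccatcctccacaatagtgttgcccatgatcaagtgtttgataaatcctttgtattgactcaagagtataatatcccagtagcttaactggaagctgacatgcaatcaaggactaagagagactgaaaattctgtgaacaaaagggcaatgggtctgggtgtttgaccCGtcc
Farthest from a peak, intergenic, chrX:31140226-31140425: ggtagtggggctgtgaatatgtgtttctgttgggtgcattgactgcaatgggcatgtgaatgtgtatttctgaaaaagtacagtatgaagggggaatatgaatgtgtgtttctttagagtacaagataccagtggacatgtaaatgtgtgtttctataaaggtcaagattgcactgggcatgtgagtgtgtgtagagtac
At a Notch1 start site, chr2:26469626-26469825: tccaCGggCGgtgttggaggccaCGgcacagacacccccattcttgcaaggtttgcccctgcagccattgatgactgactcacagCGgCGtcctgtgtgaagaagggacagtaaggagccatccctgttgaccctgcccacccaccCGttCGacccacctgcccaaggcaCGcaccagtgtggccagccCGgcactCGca
These stretches held 1, 1, 1, 0 and 10 CpG dinucleotides and had a GC content of 50%, 52.5%, 42.5%, 41% and 63.5%. Over all members the GC content had a median of 48.7%, with 1.20 CpG per 100 bases on average, against a median of 41% and 0.759 in peak-free genome.

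The sites were higher in both DKO libraries. The median scaled reads (reads divided by the constant of the library) over the 28367 sites were 33.9 in DKO 1 and 45.9 in DKO 2. They were 13.3 in Daxx-WT 1 and 15.4 in Daxx-WT 2. Both DKO libraries lay above both Daxx-WT libraries at 28363 of the 28367 sites. Of all listed sites 72.1% had this order, and 72.1% had a higher DKO mean. The order thus came with the choice of higher sites, and nothing is read from it. With limma, 27582 members had a Benjamini-Hochberg adjusted p below 0.05, against 67.3% of all listed sites called higher, and since this contrast chose the members nothing is read from that count. Without DKO 1, or without DKO 2, no site of the table passed this threshold. The median log2 ratio of DKO to Daxx-WT, with 1 added to the scaled reads, was 1.48, that is 2.80-fold on this scale, and 5% to 95% of the sites spanned 1.07 to 2.08. Leaving out each library in turn gave medians from 1.24 to 1.69.

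The levels were low in absolute terms. Relative to the mean reads per 600-bp window of the same library, the members had a median of 2.60 in DKO 1 and 2.46 in DKO 2. The same measure was 1.44 in Daxx-WT 1 and 1.47 in Daxx-WT 2. In reads, the medians were 31.9, 49.1, 15.0 and 14.0 per site. The site caller keeps windows above the library mean plus 2 standard deviations, which is 2.19 and 2.30 times the mean in DKO and 2.54 and 2.41 times in Daxx-WT. That level was exceeded at 91.9% and 86.8% of the members in DKO and at 5.24% and 6.55% in Daxx-WT. The DKO values were also tightly packed, with 5% to 95% of the members between 2.20 and 3.35 times the mean in DKO 2. The cutoff limits them from below, and in DKO 1 the lowest and the 5% value were both 23.3 scaled reads. The shares above the cutoff, the narrow range and the order of members within it thus depend on this selection, and nothing is read from them. Within that range the 2 DKO libraries ranked the members differently. Across the 28367 members, Spearman's rho of the reads over the library mean was 0.16 between the DKO libraries and 0.38 between the Daxx-WT libraries, and it was 0.57 and 0.61 between DKO 1 and the Daxx-WT libraries. At the 8373 higher sites in peaks it was 0.74 between the DKO libraries. These sites share their libraries and their selection on these values. Higher sites that did lie in a peak had medians of 4.53 and 3.06 in DKO and 2.21 and 2.53 in Daxx-WT, so their Daxx-WT level was already near that of the members in DKO.

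**Figure D1:**
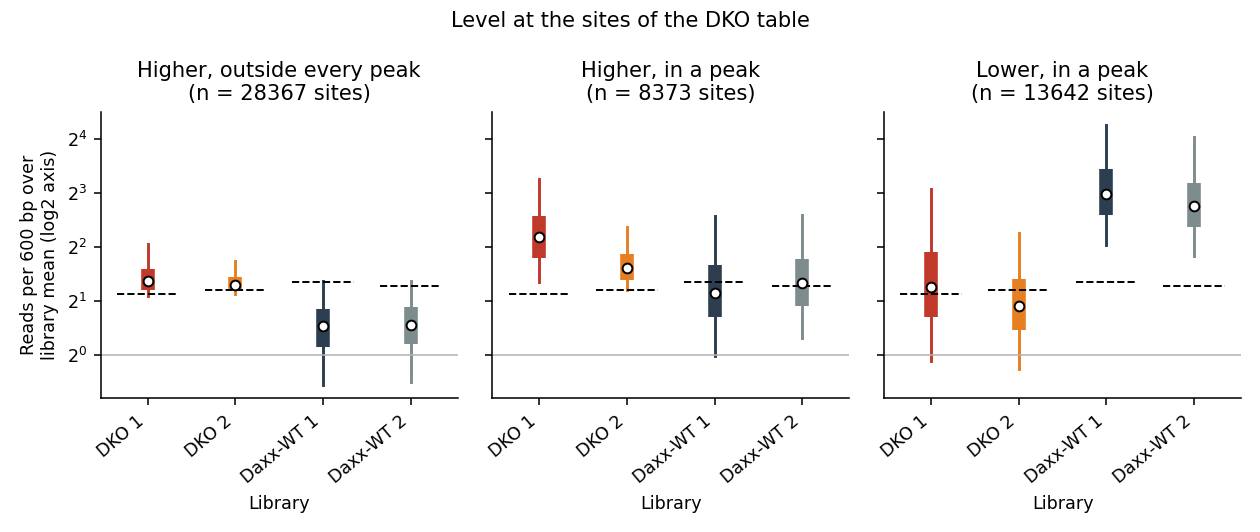
Reads per 600 bp over the mean of the library (log2 axis) in the 2 DKO and 2 Daxx-WT libraries, for 3 sets of sites of the DKO table. Circles are medians, thick bars span 25% to 75% and thin lines 5% to 95% of the sites, and dashed lines mark the library mean plus 2 standard deviations. The sites outside every peak sit just above the dashed line in DKO (medians 2.60 and 2.46) and below it in Daxx-WT (1.44 and 1.47).

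The mean reads per window of the libraries moved with this difference. The header lists a right-trimmed mean with an alpha of 0.05, so these means need not follow total depth, which is unknown. The DKO libraries had 9.98 and 16 reads per window on average and the Daxx-WT libraries 8.35 and 7.45. After division by the constants the means were 10.6 and 15.0 in DKO against 7.39 and 8.19 in Daxx-WT, a ratio of 1.64, so the constants did not bring the libraries to one common mean. With each library scaled to its own mean per window, the median log2 ratio of the members was 0.80 and 28334 of them kept a higher DKO mean. Over the whole table the same scaling changed the limma calls from 34252 higher and 7603 lower to 3310 higher and 13843 lower.

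The other 2 site tables were read in the same way. In the DKO table, 98.1% of the 28913 sites outside peaks were higher, but only 38.0% of the 22015 sites in peaks. In Daxx-KO KLS cells, whose scaled mean was 0.752 times that of Daxx-WT, 94.3% of the 11046 sites outside peaks were lower. In Daxx-KO LT-HSCs collected at 3 d.p.i., with a ratio of 0.836, 90.8% of the 6988 sites outside peaks were lower. Most sites outside peaks thus went the way of the ratio of the group means in each table. The KLS tables share both Daxx-WT libraries, and the scaled means of single libraries did not all follow the ratio. In the Daxx-KO KLS table, Daxx-KO 1 had a scaled mean of 9.03, above the 7.60 and 8.61 of Daxx-WT, and the other two had 3.98 and 5.27. At the lower sites outside peaks the median over the own mean of the library was 1.25 in Daxx-KO 1 and 1.69 and 1.61 in the other Daxx-KO libraries. These sites were listed on their Daxx-KO values and the means differ, so nothing is read from that order. In the LT-HSC table the scaled means overlapped. The Daxx-KO libraries had 8.71, 4.01 and 10.1, and 10.8 and 7.41 were those of Daxx-WT. The part of depth and scaling in the direction of the members was not tested.

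Members lay in and near genes. By the centre of the site, 53.4% were in introns, 27.0% between genes, 10.9% within 1000 bp of a transcription start site (TSS) and 8.67% in exons. Of the 49878515 windows of 600 bp outside every peak, 38.3% were in introns, 53.8% between genes, 4.83% near a TSS and 3.12% in exons. Members were thus 2.78 times as frequent as windows in exons, 2.25 times near a TSS and 0.503 times between genes. The median distance to a TSS was 6864 bp. This profile is unlike that of the sites lost in peaks, 26.8% of which were near a TSS. It was nearer that of the higher sites in peaks, with 50.3% in introns, 30.8% between genes, 13.5% near a TSS and 5.33% in exons. It was close to that of the lower sites outside peaks in Daxx-KO KLS cells, with 50.2% in introns, 30.6% between genes, 10.97% near a TSS and 8.27% in exons. The lower sites outside peaks in LT-HSCs, which share no library with the members, had 49.8%, 30.8%, 11.1% and 8.29%. Repeats masked in the reference covered 19.8% of the members on average, 19.8% of the higher sites in peaks and 37.4% of the peak-free windows.

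Members were also near peaks, although they touched none. The median distance to the nearest peak was 3438 bp, against about 22100 bp for peak-free windows. Within 1 kb of a peak lay 17.5% of the members and 6.89% of the windows, and 44.3% of the members against 17.9% of the windows lay 1 to 5 kb away. Beyond 100 kb the shares were 1.77% and 28.8%. Of the 11 lists, that of LT-HSCs without Daxx (70455 peaks) had a peak within 1 kb of 11.6% of the members, and the DKO list itself (22156 peaks) of 3.90%. Daxx-WT levels rose towards peaks. The median over the library mean was 1.64 within 1 kb and 1.22 at 20 to 100 kb, while in DKO it was 2.70 and 2.45. Consequently the median log2 ratio was smallest close to peaks, 1.37 within 1 kb, and was 1.63 at 20 to 100 kb. The cutoff of the site caller limits the DKO level of members from below, so this ratio mostly mirrors the Daxx-WT level.

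**Figure D2:**
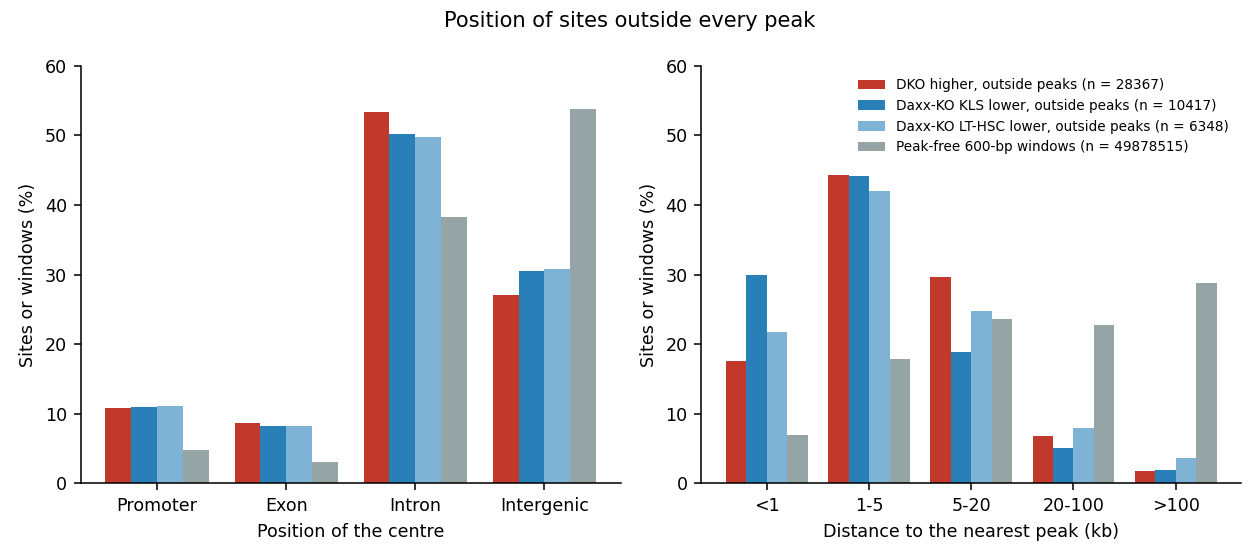
Share of sites by the position of their centre (left) and by distance to the nearest peak (right, kb) for the members, the lower sites outside peaks in Daxx-KO KLS cells and LT-HSCs, and all peak-free windows of 600 bp. The 3 sets of sites have similar gene positions, with introns at 49.8% to 53.4% against 38.3% of windows. Within 1 kb of a peak lie 17.5% of the members, 29.97% of the Daxx-KO KLS set, 21.8% of the LT-HSC set and 6.89% of windows.

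GC content separated the sites from the rest of the genome most steeply. There were 1.07 members per 100000 peak-free windows below 35% GC, 36.1 at 40% to 45%, 108 at 45% to 50% and 421 at 55% to 60%. Above 60% GC the number was 210. Windows of 45% to 60% GC made up 27.1% of the peak-free genome and held 76.1% of the members. Within the GC classes up to 50% members became rarer with distance from peaks. At 45% to 50% GC there were 180 members per 100000 windows within 1 kb of a peak, 113 at 5 to 20 kb and 11.6 beyond 100 kb. At 50% to 55% GC the number was lower within 1 kb (309) than at 1 to 5 kb (371). At 55% to 60% GC it was 394 within 1 kb, 538 at 1 to 5 kb and 454 at 5 to 20 kb. In the class of 45% to 50% GC members stayed more frequent in genes than between them, with 140 per 100000 windows in introns and 69.4 between genes. Exons had 180. Windows near a TSS had 139, no more than introns, whereas over all GC classes members were 2.25 times as frequent as windows near a TSS and 1.40 times in introns. Levels differed little by GC content, but in DKO the cutoff of the site caller limits them from below. The Daxx-WT median over the library mean rose from 1.33 at 40% to 45% GC to 1.66 at 55% to 60%, and the DKO median from 2.51 to 2.73.

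**Figure D3:**
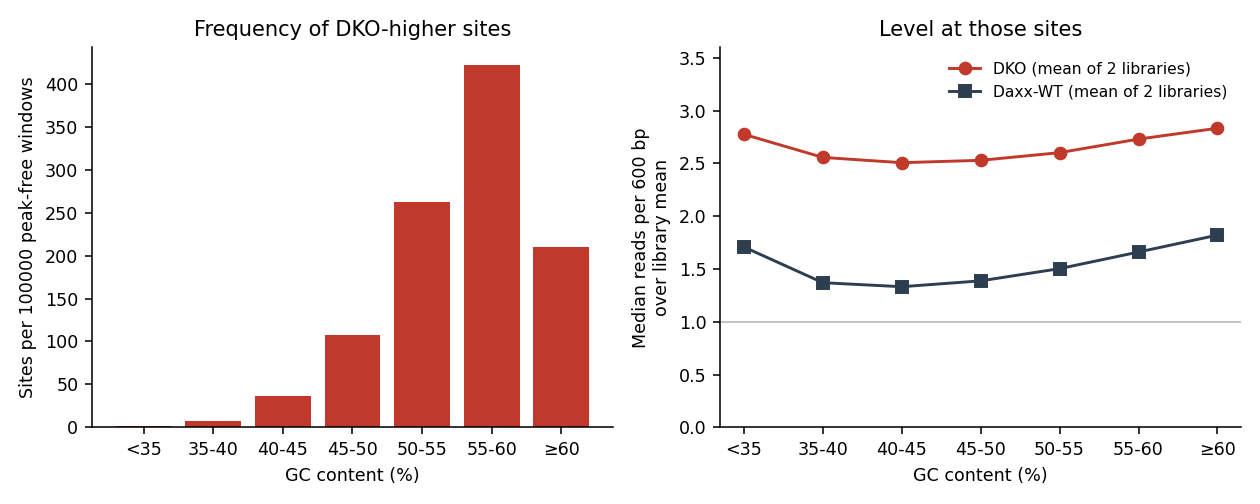
Members per 100000 peak-free windows of the same GC content (left) and the median reads per 600 bp over the library mean at the members, averaged over the 2 libraries of each group (right). The frequency climbs from 1.07 below 35% GC to 421 at 55% to 60%, while the levels in DKO stay between 2.51 and 2.83. The cutoff of the site caller limits the DKO levels from below.

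Motifs were searched on both strands within 100 bp of the centre. The Pu.1 motif GAGGAAGT was found at 306 members (1.08%), against 1.14% of peak-free windows, 8.99% of the sites lost in peaks and 2.10% of the sites gained in peaks. At 45% to 50% GC the shares were 1.12% of the members and 1.41% of the windows. The Ets motif CCGGAAGT, which ends in the same 6 letters as the Pu.1 motif, was at 0.215% of the members and 0.103% of the windows. The Runx motif TGTGGTT was at 5.50% of the members and 4.65% of the windows. For the GATA motif AGATAAG the shares were 2.18% and 2.97%. For the AP-1 motif TGANTCA they were 6.18% and 5.97%, and for the CTCF motif 0.691% and 0.528%. At 45% to 50% GC the Ets motif was at 0.173% of both, so its difference was not seen in that class. The Runx motif was at 5.89% and 4.40% there. The sites gained in peaks had the Runx motif at 8.50%, and the members 5.50%. The 2 members with the Pu.1 motif that had most DKO reads are shown as 60 bases on the plus strand of mm10, with the motif or its reverse complement ACTTCCTC in capitals.
Promoter-class member in Hjurp, chr1:88269943-88270002: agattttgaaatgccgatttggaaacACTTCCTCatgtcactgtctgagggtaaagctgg
Intergenic member, chr4:3226914-3226973: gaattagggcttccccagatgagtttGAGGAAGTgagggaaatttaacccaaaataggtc
The Hjurp member, in the gene of a centromeric histone chaperone, had 177 and 190 scaled reads in DKO and 100 and 121 in Daxx-WT. The intergenic member had 120 and 184 in DKO and 76.3 and 75.7 in Daxx-WT.

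Members were spread over every autosome and followed gene and peak density. Chromosome 2 held 2925, chromosome 7 held 2182 and chromosome 11 held 1985. Per peak-free Mb the autosomes ranged from 7.34 on chromosome 3 to 20.1 on chromosome 17. Chromosome X held 68 members, or 0.425 per peak-free Mb, and chromosome Y none. This was low also against its peaks, with 3.12 members per 100 peaks on X and between 20.5 and 37.7 on the autosomes. At 45% to 50% GC, X had 6.20 members per 100000 windows and the autosomes 114. The lower sites outside peaks in LT-HSCs had 0.189% of their number on X. Of all sites of the DKO table on X, 120 were higher and 301 lower. Whether the sex of the mice bears on this was not tested, since the labels do not give it per library.

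Among 2660 bins of 1 Mb, 680 held no member, the median was 5 and 364 bins held 50% of the members. Bins without members had a median GC content of 38.4% and 1 protein-coding gene start, and the 547 bins with 20 or more members had 45.9% and 15. With bins ranked by gene starts and split into 4 equal classes, the richest class held 52.6% of the members and the poorest 3.24%. Across bins, Spearman's rho of the number of members was 0.86 with the number of peaks, 0.79 with GC content and 0.66 with gene starts. These measures are themselves related, and neighbouring bins are not independent. The nearest other member was at a median distance of 8000 bp, and 38.9% of the members had another within 5 kb. Within 5 kb, 13.7% had one of the 8373 higher sites in a peak and 7.50% one of the 13642 lower ones. These sets are smaller than that of the members, so the shares do not rank how closely the sites lie together.

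**Figure D4:**
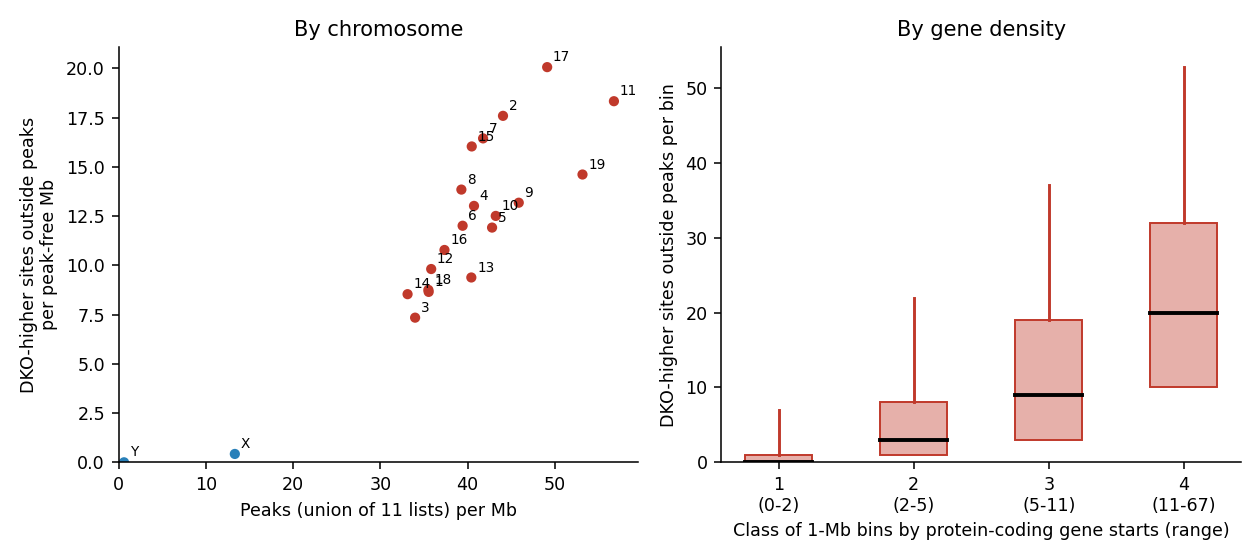
Members per peak-free Mb against peaks per Mb for each chromosome (left, X and Y in blue) and members per 1-Mb bin in 4 equal classes of gene density, from gene-poorest to gene-richest (right; line, median; box, 25% to 75%; whisker to 95%). The autosomes lie between 7.34 and 20.1 members per Mb and chromosome X at 0.425, and the median per bin is 0 in the poorest class and 20 in the richest.

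The densest bin was chr17:56000001-57000000 with 126 members, 109 peaks and 41 gene starts. It holds Uhrf1, which maintains DNA methylation, the chromatin assembly factor gene Chaf1a and the histone demethylase gene Kdm4b. The bin chr2:180000001-181000000 held 110 members, 87 peaks and 27 gene starts, among them the laminin gene Lama5 and Dido1. The bin chr4:147000001-148000000 differed from both. It held 98 members but 29 peaks, at 41.5% GC, and is filled with zinc finger genes such as Zfp982, Zfp985 and Zfp988. Its members had medians of 52.5 and 62.8 in DKO and 24.9 and 27.97 in Daxx-WT, above those of all members in each library, and 37.4% of their bases were masked repeats. Related gene copies share sequence there, and whether this affects the placement of reads was not tested.

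The largest ratios belonged to sites that were nearly empty in Daxx-WT. The intergenic site chr17:6496301-6496950 had 27.6 and 34.7 scaled reads in DKO and 0 and 1.10 in Daxx-WT. The intergenic site chr19:54356251-54357000 had 25.4 and 45.9 against 2.66 and 0. It lies 176944 bp from the nearest peak. An intronic site of Lrig1, a negative regulator of EGF receptor signalling, at chr6:94695601-94696250 had 31.8 and 38.4 against 0.89 and 3.29. An intronic site of Atp2b2, a plasma membrane calcium pump, at chr6:113824851-113825900 had 60.4 and 57.1 against 1.77 and 6.58. The DKO values of these sites were like those of other members and the Daxx-WT values were the unusual ones. These sites were picked for their ratio, and the cutoff limits the DKO level from below, so nothing is read from this.

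At the other end, 30 members carried more than 200 scaled reads per 600 bp in DKO, and their median log2 ratio was 0.49. The site chr2:98662451-98663150, near Gm10801, had 13156 and 12891 scaled reads in DKO and 10807 and 12318 in Daxx-WT. At chr17:39844501-39849100, annotated with an rRNA gene and the lincRNA genes Gm26917 and Gm42418, the values were 37931 and 34269 in DKO and 26976 and 26478 in Daxx-WT. The site chr14:19416451-19418550, in Gm21738, with 85.8% masked repeats, had 16350 and 15567 against 10942 and 13258. Ribosomal DNA and satellite repeats are known to exist in many copies, of which a reference holds few. The longest members were also of high level. The longest, chr11:3191901-3199350 in Sfi1, a centrosomal protein gene, spanned 7450 bp and had 5489 and 7094 against 4081 and 4063. Most members were short, with a median of 700 bp and 7675 of them exactly 600 bp, the size of a single window. Without the 30 sites the median log2 ratio of the members was 1.48 as before.

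The members farthest from a peak were 3 neighbouring sites on chromosome X, all in an intergenic stretch near Btbd35f29. The first, chrX:31140001-31140650, had 40.3 and 41.2 scaled reads in DKO and 19.5 and 10.97 in Daxx-WT, and the nearest peak was 4693776 bp away. Its neighbour at 31143701 to 31144350 had 40.3 and 35.6 against 17.8 and 7.68. The last, at 31158151 to 31159150, had 74.2 and 88.1 against 39.1 and 50.5.

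The values of sites on either side of the peak rule are given without a test. The member chr11:106649251-106649950 lay 1 bp from a peak and had 41.4 and 39.4 in DKO and 11.5 and 17.6 in Daxx-WT. Another at 1 bp from a peak, in Smagp at chr15:100632251-100633050, had 37.1 and 46.8 against 16.0 and 20.8. Higher sites kept out by an overlap of 1 bp, in Map2k4 and at the Padi6 promoter, had 33.9 and 52.5 against 10.6 and 17.6, and 43.5 and 52.5 against 17.8 and 20.8.

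The targeted genes held members as well as sites with lower values in DKO. In Spi1, the site at its last exon, chr2:91114801-91115800, had 2.12 and 4.68 scaled reads in DKO and 31.1 and 58.1 in Daxx-WT. Of the 4 higher sites in the gene, 2 were members. The member at chr2:91109301-91110650 had 99.7 and 81.5 in DKO and 30.2 and 38.4 in Daxx-WT, and that at chr2:91110801-91111450 had 30.8 and 45.9 against 11.5 and 18.7. In Daxx, the site chr17:33909551-33912700, in a peak, had 97.6 and 74.0 in DKO and 263 and 302 in Daxx-WT. The site chr17:33913451-33914850 had 6.36 and 8.43 in DKO and 79.9 and 44.97 in Daxx-WT. The member just beyond it, chr17:33914951-33915550, at the end of the gene, had 61.5 and 80.6 against 37.3 and 35.1. A peak lay within 1 kb of a TSS for 4 of 6 KLS marker genes in the DKO list and 5 of 6 in the Daxx-KO and Daxx-WT lists. Ly6a, which encodes Sca-1, had none in any of them. For 8 lineage genes the counts were 1, 3 and 2.

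Among blood transcription factor genes, 24 of 52 had a member in the gene or 1000 bp upstream, 101 members in all. Their density was 22.1 per Mb, against 18.5 per Mb over the 21938 protein-coding genes, 7915 of which (36.1%) had a member. Runx1, a master regulator of definitive haematopoiesis, had 11 members over its 224684 bp. Bach2 and Zbtb16 had 10 each, Etv6 8, Tcf4 7, and Bcl11a and Ikzf1, both zinc finger factors of the lymphoid lineages, 6 each. By density the leading genes were Klf1, the erythroid Krüppel-like factor, with 1 member in 3364 bp, Tcf7 with 4, Tcf3 with 2 and Runx3 with 4. Members at or near annotated transcript starts inside these genes were found for Tcf4, Notch1 and Tcf3, not at the start of the gene itself. The Tcf4 site lay 268745 bp from the nearest protein-coding gene start, that of Tcf4. For the Notch1 and Tcf3 sites the nearest gene starts were those of Sec16a (23885 bp) and Uqcr11 (7871 bp). The Tcf4 site chr18:69612101-69612900 had 43.5 and 49.6 scaled reads in DKO and 18.6 and 23.0 in Daxx-WT. The Notch1 site chr2:26469101-26470350 had 67.9 and 87.1 against 32.8 and 23.0. The Tcf3 site chr10:80414701-80415300 had 30.8 and 50.6 against 10.7 and 18.7. Over the 101 members the median log2 ratio was 1.40.

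Of 30 genes for blood surface receptors and signalling 14 had a member, led by Cd79b, Csf2ra, Csf2rb and Cd3e, at 19.5 per Mb. Granulocyte and monocyte effector genes had members in 7 of 22, at 58.3 per Mb of short genes. Mpo, the myeloperoxidase of neutrophil granules, held 5 of their 13 members in 10833 bp, and Ncf1, an NADPH oxidase subunit, held 3. The median log2 ratio of these 13 members was 1.29. Interferon-stimulated genes and RNA sensors had members in 11 of 27 at 32.2 per Mb, including Stat2 with 3 and Zbp1, Mavs and Irf3. Chromatin silencing and H3.3 genes had members in 18 of 33 at 41.0 per Mb, of which Cabin1, a subunit of the HIRA histone chaperone complex, held 18 members and Uhrf1 4. Large genes with mostly neuronal roles had members in 17 of 34, at 1.25 per Mb. Wwox held 18 of those 57, with 6 in Opcml and 5 in Ptprt. The median GC content of the surrounding 1 Mb was 38.4% for these genes and 44.0% for protein-coding genes at large.

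Clustered sensory receptor genes, whose known roles lie outside blood, had few members. Olfactory receptor genes had members in 30 of 1135 (4.43 per Mb) and vomeronasal receptor genes in 6 of 329 (1.08 per Mb). The median GC content of the surrounding 1 Mb was 39.5% and 40.3% for these lists, against 44.0% for all protein-coding genes. The short keratin genes had members in 6 of 53, but at 19.95 per Mb their density was not below that of all protein-coding genes. Among the overlapping protocadherin cluster genes, 30 of 57 shared just 4 separate members. Lists of genes that every cell uses held few members as well, but these genes are short. Housekeeping genes had members in 2 of 25, Gusb and Ldha (4.94 per Mb), ribosomal protein genes in 3 of 92 (10.6 per Mb) and histone cluster genes in 2 of 66 (11.5 per Mb). Their median lengths were 12202, 3226.5 and 536.5 bp, against 17425 bp for all protein-coding genes. Shares of genes with a member are thus not comparable between these lists. The median GC content of the surrounding 1 Mb was 45.3%, 45.9% and 41.6%. Zinc finger genes named Zfp had members in 102 of 394, at 17.1 per Mb, led by Zfp992, Zfp512b, Zfp985 and Zfp982. Zfp985 and Zfp982 lie in the bin of chromosome 4 described above and Zfp992 lies before it.

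LT-HSCs at 3 d.p.i. share no library with the rule. They differ from the KLS libraries in cell type, time, Cre and inducing agent. Lower LT-HSC sites overlapped 573 members (2.02% of the members), and 561 LT-HSC sites were involved (6.64% of the 8451 lower sites). Higher LT-HSC sites overlapped 75 members (0.264%), and 76 were involved (2.19% of 3476). Thus most of the 637 LT-HSC sites at members were lower, the opposite of the DKO direction. Of all LT-HSC sites 70.9% were lower, and outside peaks 90.8%, beside 88.1% of these 637. At the 561 lower sites the median scaled reads were 16.5, 13.4 and 19.0 in the Daxx-KO libraries, below the 40.6 and 36.6 of Daxx-WT. At the members they overlap, the medians were 36.0 and 51.5 in DKO and 15.1 and 16.4 in Daxx-WT. With limma, 0 of the 11927 LT-HSC sites passed an adjusted p below 0.05. At an unadjusted p below 0.05 there were 8370 lower sites (70.2% of the listed sites, of which 8451 were lower) and 3084 higher ones (25.9%). At members it was 555 of the 561 lower sites. Adjusted over the listed sites alone, in place of all windows that the header gives as tested, 11428 sites passed. The table lists only sites that the authors had selected in those libraries.

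The Daxx-KO KLS table shares both Daxx-WT libraries with the DKO table, so its values are given beside those of the members without a count of agreement. At the 415 lower Daxx-KO sites that touch a member, the 3 Daxx-KO libraries had medians of 14.5, 9.62 and 10.3, while Daxx-WT had 28.3 and 30.9. The members there had 44.5 and 56.2 in DKO and 20.4 and 21.9 in Daxx-WT. At the 123 higher Daxx-KO sites that touch a member, the medians were 42.3, 50.7 and 39.5 against 17.3 and 19.5, beside 53.0 and 60.9 in DKO and 20.4 and 23.0 in Daxx-WT. With limma, 0 of the 17311 Daxx-KO sites had an adjusted p below 0.05, and 13851 lower (80% of the listed sites) and 2898 higher sites (16.7%) an unadjusted p below 0.05. Adjusted over the listed sites alone, 16711 passed. With a replicate block 2296 passed, in a fit of only the libraries whose numbers both genotypes share, so not all Daxx-KO libraries.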

How the data were processed

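ATAC-seq libraries of KLS cells and LT-HSCs were compared through 3 site tables and 11 peak lists deposited by the authors, with groups taken from the titles. Per the file headers, the tables were made with diffReps 1.55.6 on mm10 in windows of 600 bp moved by 50 bp (negative binomial test, p-value cutoff 0.0001, 2 standard deviations), and the authors' signal per site and library is the read number divided by a constant. They list selected sites alone. The authors' log2 fold changes, p-values and FDR were not used. The 5 lists of reproducible peaks carry the authors' score, fold enrichment and −log10 p and q values, of which positions alone were used. The submitters' processing notes name CASAVA 1.8.4, with which the study demultiplexed the libraries of its tamoxifen arm taken at 3 w.p.i., and cutadapt 1.13, STAR 2.5.3 and bedtools, with roles not given in the sources used here. The total depth per library is unknown. The headers give 4.21 to 16 reads per window.

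Members were higher sites with no peak within the site (1 bp). GC content, masked repeats, motifs and sequences came from the GRCm38 reference, and genes from GENCODE release M 21. The background was every N-free window of 600 bp at 50-bp steps that overlaps no peak. All values per library were tested over each whole table with limma 3.58.1 on log2(scaled reads + 1), Benjamini-Hochberg adjusted over all windows reported as tested, without a replicate block, in R 4.3.3. Two-sided p-values measure the spread between libraries, whose separate animals the labels do not number throughout. The step was tested on simulated data. Other work used Python 3.11.15, pandas 2.3.3, numpy 2.4.6 and pysam 0.24.0. Named sites were the 4 of largest ratio, the 4 of most reads per 600 bp, the 3 farthest from a peak, the 3 longest, the 3 nearest a start site of a listed blood transcription factor and the 3 fullest bins of 1 Mb. Named genes were the 4 of highest member density per list or had a member. The typical and Pu.1-motif sites, and the Hjurp and Spi1 values, were chosen after their values were seen. The members and the gene lists were chosen with earlier results of these data known.

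The replicate numbers of the KLS libraries did not pair them. The differences between libraries 1 and 2 of each genotype correlated across sites with r = -0.0031 in the DKO table and 0.035 in the Daxx-KO table.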

Additional observations from a re-analysis of the deposited data

How the results depend on the processing

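The number of members stayed between 23384 and 31952 over 7 other settings of lists, overlap, filter and scaling. The filter of at least 20 scaled reads could remove no member, since the lowest values were 23.3 in DKO 1 and 29.0 in DKO 2. Without each library in turn the number was between 28365 and 28367. The sites had been listed with all libraries of the table, so this number could hardly change and nothing is read from it. The median log2 ratio was 0.80 with reads scaled to the mean per window, 1.52 and 1.27 with pseudocounts of 0.5 and 5, and 1.24 to 1.69 without each library. Without the 30 members of very high level, an alternative chosen after seeing the data, it was 1.48. The share of members farther than 1000 bp from a TSS was 89.1%, 75.9% farther than 2500 bp and 92.0% with protein-coding start sites alone. The median distance to a peak was 5405 bp with the 5 lists of reproducible peaks and 6305 bp with the 3 KLS lists, and Spearman's rho with gene starts was 0.72 in 5-Mb bins.

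With limma the DKO table had 41855 calls, 17153 after scaling to the mean per window, and 0 to 35650 without each library. It had 0 calls without DKO replicate 1 or without DKO replicate 2, which leaves a lone DKO library that is assumed to vary like Daxx-WT, and 26233 without Daxx-WT replicate 1. The replicate block gave 42605 calls. For LT-HSCs the 0 calls became 15 with scaling to the mean per window and 11428 when adjusted over the listed sites alone, and stayed at 0 without each library. No paired analysis was possible for LT-HSCs because the file header names these libraries by numbers that match no replicate number of the labels. In Daxx-KO KLS cells the 0 calls became 4363 with a pseudocount of 5 and 16711 when adjusted over the listed sites alone. They became 2296 with the replicate block, fitted only to libraries with numbers that both genotypes share, so not to all Daxx-KO libraries. Without each Daxx-KO library in turn they stayed at 0. The cause of these changes was not tested. Count tests with edgeR or DESeq2 were not run, because the tables hold scaled values in joined cells. The 2 libraries per group, the unknown total depth and the selection of sites before deposit limit all values.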
